A study of Mus musculus with 13 samples.

Results

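Infarcted mouse hearts treated with FG-3149, an antibody to connective tissue growth factor (CTGF), were compared with infarcted hearts that received a control IgG antibody. The comparison took its members from the library titles, with 5 FG-3149 libraries set against 5 IgG libraries out of 13 in the study, and it covered the 13434 genes with enough reads among 36172 gene entries. All animals were of strain C57BL/6JO1aHsd, were 8 to 10 weeks old when treatment began and carried the time label 1W+6W. Both infarcted groups had the left anterior descending coronary artery (LAD) tied permanently, and both antibodies were given at 10 mg/kg. A further 3 libraries came from sham-operated animals without antibody, which are shown here as the uninfarcted level and entered the fit as a group of their own. RNA came from left ventricle away from the ischaemic area, so the scar itself was not sampled. The question was which RNAs of the surviving ventricle differed when CTGF was targeted after infarction.

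CTGF, also named CCN2 and encoded by Ctgf, is a secreted matricellular protein: it sits in the extracellular matrix, binds integrins and growth factors, and is a transcriptional target of TGF-beta and of the YAP and TEAD factors. In the infarcted heart it is made by fibroblasts and by stressed cardiomyocytes. Fibroblasts that become active after an infarct secrete collagens, periostin and small leucine-rich proteoglycans, the short matrix proteins that bind and space collagen fibrils. The antibody binds the protein, so the level of Ctgf RNA does not check whether it reached its target.

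Levels are given as CPM, counts relative to the library total after scaling by the trimmed mean of M values, and fold changes as log2 of FG-3149 over IgG with the standard error (SE). A gene is said to be called, or to have risen or fallen, where its Benjamini-Hochberg adjusted p in edgeR's quasi-likelihood test over all 13434 genes was under 0.05. Values of the libraries are listed in the order of replicates 1 to 5 within a group.

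The libraries of the groups differed in more than treatment. Totals were 13084651 to 17567207 counts in the IgG group and 10954901 to 12794791 in the FG-3149 group, with no overlap. In 4628 well covered genes of at least 3 exons, the median share of a gene's reads that lay in its first exon was 0.784%, 0.780%, 0.989%, 1.28% and 0.985% in the IgG libraries. The same share was 1.89%, 2.29%, 2.19%, 2.23% and 2.14% in the FG-3149 libraries, so every FG-3149 library had more first-exon reads than every IgG library (exact two-sided permutation test, p = 0.00794, the smallest that 5 against 5 libraries allow; adjusted over 9 library measures, p = 0.0357). The sham libraries lay lowest, at 0.632% to 0.750%. The share of reads in the 5′ portion of the transcript, exons centred nearer its 5′ end, was 40.8% to 42.8% in the IgG libraries and 42.0% to 44.2% in the FG-3149 libraries (exact permutation p = 0.0159, adjusted p = 0.0358). RNAs rich in G and C were on average relatively more abundant in the FG-3149 libraries. The slope of log2 CPM over GC content, per 10 percentage points, ran from -0.0509 to 0.0425 under IgG and from 0.0419 to 0.0678 under FG-3149 (exact permutation p = 0.0159, adjusted p = 0.0358). IgG replicate 2 thus lay just above FG-3149 replicate 1. In the sham libraries the slopes were lower than in either infarcted group, at -0.135 to -0.0638. Treatment and these shifts in read position and base composition cannot be told apart by grouping. Many results below are therefore also given from refitted counts. The refits left out the reads of first exons, or used the 3′ portion of transcripts only (exons centred nearer the 3′ end). Others removed a smooth trend over GC content from each library. The refits are not given for every call, so a call given without them may not have held in them. The share of the ribosomal RNA precursor Rn45s (exact permutation p = 0.333) and the score of the circadian clock genes (exact permutation p = 0.873) did not separate the groups at this size.

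**Figure D1:**
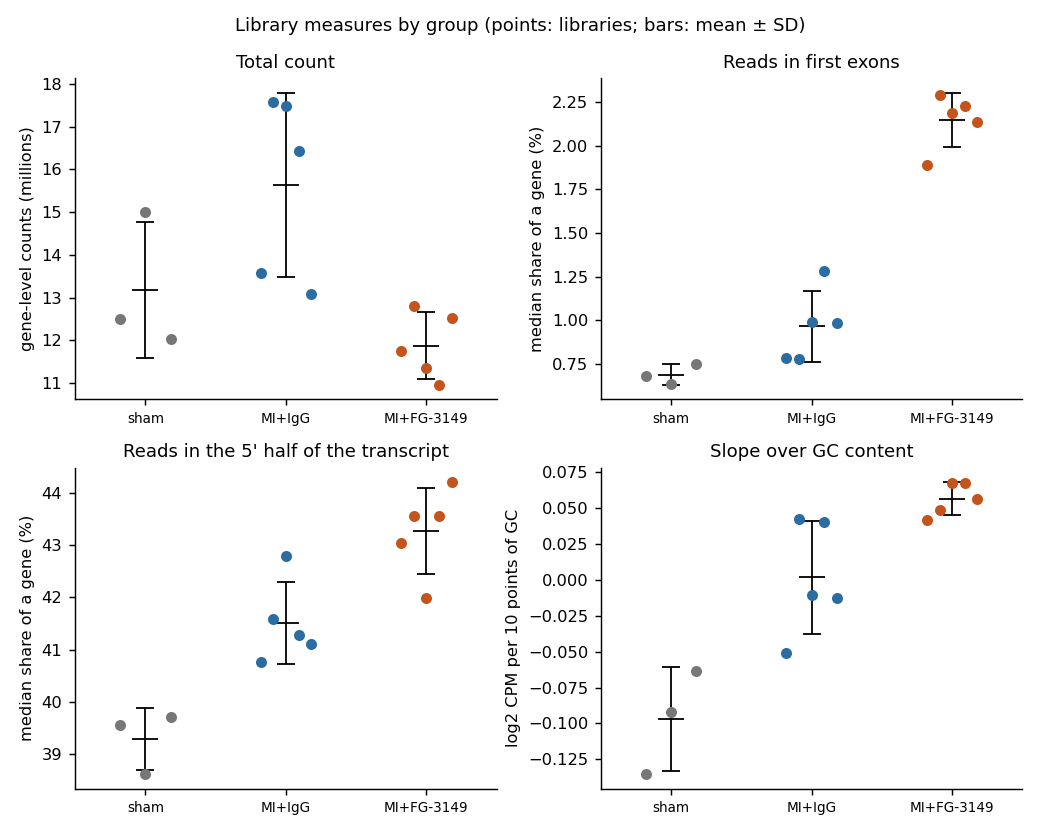
Total count, median first-exon share (%), median share of reads in the 5′ portion of a transcript (%) and slope of log2 CPM over GC content in each library, by group (points: libraries; bars: mean ± SD; 3 sham, 5 MI+IgG and 5 MI+FG-3149 libraries). The FG-3149 libraries have first-exon shares of 1.89% to 2.29%, above all IgG libraries, and the lowest totals of the infarcted libraries.

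Few RNAs differed between FG-3149 and IgG, and most of those were higher with FG-3149. Of 13434 genes, 144 were called (1.07%): 123 rose (0.916%) and 21 fell (0.156%). Changes were small, with a median log2 fold change of 0.38 among the genes that rose and -0.41 among those that fell. Only 13 of the 123 rose by more than 2-fold, and 2 of the 21 fell by more than 2-fold, Cthrc1 and the ETS transcription factor Etv4. The libraries of the groups did not overlap for 108 of the 123 and 15 of the 21, beside 1.90% of all genes with every FG-3149 library higher and 1.24% with every one lower. At an unadjusted p under 0.05, 981 genes lay higher (7.30%) and 868 lower (6.46%), a more even split than among the calls.

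The counts changed when single libraries or first-exon reads were left out. Genes that rose numbered 62 without IgG replicate 2, 77 without IgG replicate 5, and 62, 65 and 74 without FG-3149 replicates 3, 4 and 5. Without IgG replicate 1 they numbered 175, and without FG-3149 replicate 1 they numbered 151. The count was 122 and 98 without IgG replicates 3 and 4, and 102 without FG-3149 replicate 2. Each of these fits also had fewer libraries to test with. Genes that fell numbered 96 without IgG replicate 1 and 6, 13, 9, 9 and 10 without IgG replicates 2 and 5 and FG-3149 replicates 2, 4 and 5. Without the reads of first exons, 43 genes of 12879 rose (0.334%) and 9 fell (0.0699%), of which 41 and 7 had been called with all reads. That refit could test only 106 of the 123 genes that rose and 20 of the 21 that fell. With the 3′ portion alone, 29 of 12482 rose and 5 fell. With 1 surrogate variable in the fit, only Jund and Gpr27 were still called, so every other call named here was lost under that setting. The variable itself ran higher in the FG-3149 group, with overlap. Its values were 0.0254, -0.436, -0.287, -0.371 and 0.241 with IgG and 0.117, -0.0624, 0.408, 0.467 and 0.155 with FG-3149. Fitting it can therefore take out part of the difference between the groups, here and wherever this setting is used below.

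**Figure D2:**
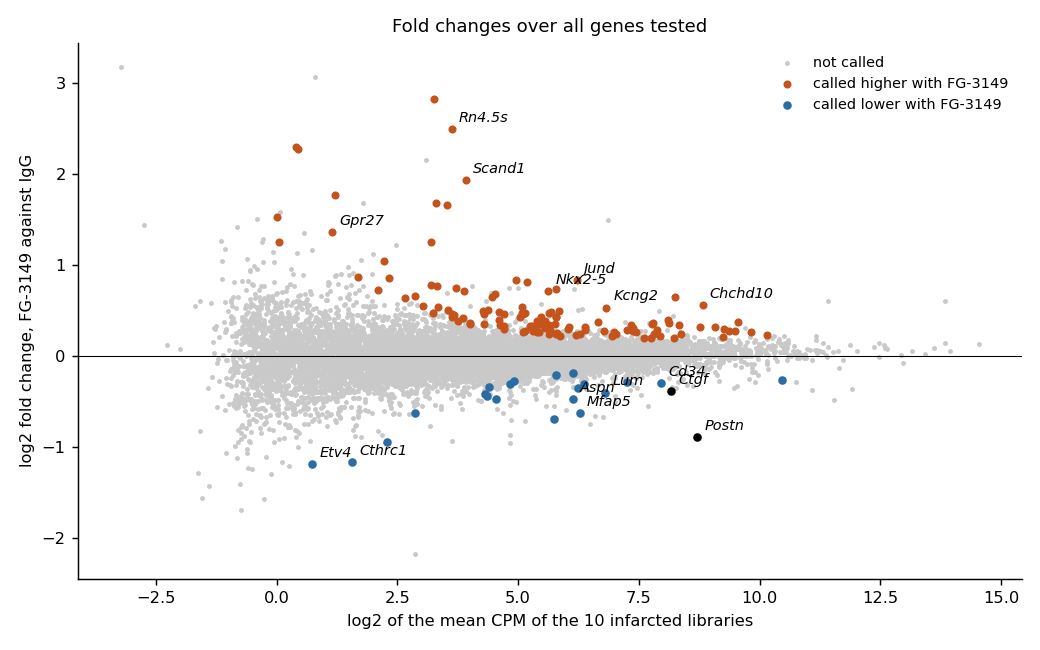
Log2 fold change of FG-3149 over IgG (vertical) against the log2 of the mean CPM of the 10 infarcted libraries (horizontal) for the 13434 genes tested. The 123 genes called higher and 21 called lower are coloured, and the uncalled genes Ctgf and Postn are marked in black; Ctgf, at -0.39, lies in the body of the cloud.

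Ctgf RNA itself was not called. Its level was 233, 439, 333, 307 and 310 CPM in the IgG libraries, 286, 325, 183, 234 and 213 CPM in the FG-3149 libraries, and 37.8 to 46.9 CPM in the sham libraries. All infarcted libraries were far above sham, and the infarcted groups overlapped, with 3 FG-3149 libraries above the lowest IgG library. The log2 fold change was -0.39 (SE 0.19; edgeR adjusted p = 0.394). Of its family, Wisp1 (CCN4) was at 5.15, 11.8, 8.03, 10.3 and 7.30 CPM with IgG and 5.73, 6.49, 4.46, 5.49 and 7.08 CPM with FG-3149 (log2 -0.55, SE 0.18; adjusted p = 0.173); it was called only without IgG replicate 1 (adjusted p = 0.0235) and without that library and FG-3149 replicate 3 together (adjusted p = 0.0490). Cyr61 (CCN1) at log2 0.01, Nov (CCN3) at -0.04 and Wisp2 (CCN5) at -0.20 were not called. None of 16 tested genes of the list of CCN family and YAP/TEAD targets was called, and 3 had an unadjusted p under 0.05, all lower. Their median log2 fold change was -0.08, against -0.01 over all genes. Without IgG replicate 1, edgeR called 2 of the 16 lower, with 6 lower at an unadjusted p under 0.05. Among 19 tested receptors and binding partners of CTGF none was called either, with 1 higher and 1 lower at an unadjusted p under 0.05. DESeq2 and limma voom also called none on these 2 lists. Without IgG replicate 1 and FG-3149 replicate 3 together, edgeR called 1 of the 19 higher, with 5 lower at an unadjusted p under 0.05.

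The genes that fell were led by products of fibroblasts and matrix. Lum (lumican) and Aspn (asporin), both small leucine-rich proteoglycans, fell in the comparison over all reads and in both refits by read position and both by base composition. They were the only genes of the 21 that did; Fibin, a single exon, could not be split by exon. Lum was at 126, 141, 123, 110 and 137 CPM with IgG and at 92.6, 98.1, 98.4, 97.7 and 92.8 CPM with FG-3149. All FG-3149 libraries lay below all IgG libraries and above the sham libraries, which held 54.5 to 65.7 CPM. The log2 fold change was -0.41 (SE 0.07; edgeR adjusted p = 0.00393), and -0.40 without first exons (adjusted p = 0.00706). Aspn was at 69.6, 86.2, 91.3, 70.3 and 89.3 CPM with IgG and at 59.8, 60.8, 54.6, 62.5 and 55.1 CPM with FG-3149, again without overlap, beside 24.1 to 30.3 CPM in sham. Its log2 fold change was -0.47 (SE 0.08; adjusted p = 0.00767), and -0.46 without first exons (adjusted p = 0.0122).

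Mfap5, a microfibril-associated glycoprotein, stood at 68.7, 124, 98.3, 88.1 and 89.6 CPM with IgG and 65.0, 64.7, 58.0, 59.7 and 55.8 CPM with FG-3149. The groups did not overlap, although IgG replicate 1 lay close to the FG-3149 libraries, and the log2 fold change was -0.63 (SE 0.13; adjusted p = 0.0349). That call was lost without any one of IgG replicates 3, 4 and 5 or FG-3149 replicates 2, 3, 4 and 5 (adjusted p = 0.0553 to 0.107) and without first exons (log2 -0.61, adjusted p = 0.0620). Cthrc1, a secreted protein of activated fibroblasts, was at 2.98, 7.32, 3.15, 3.54 and 3.61 CPM with IgG and 2.48, 2.29, 1.18, 1.30 and 1.87 CPM with FG-3149, and at most 0.0677 CPM in sham. IgG replicate 2 stood well above the other IgG libraries; the groups did not overlap. Its log2 fold change of -1.17 (SE 0.28) was at the edge of the threshold (adjusted p = 0.0491) and the call was lost under 19 of 28 alternatives, among them leaving out IgG replicate 2 (adjusted p = 0.131), 4 (0.0693) or 5 (0.0680), or FG-3149 replicate 2 (0.0635), 3 (0.130), 4 (0.128) or 5 (0.101).

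Fibin, a secreted protein encoded by a single exon, was at 50.4, 62.6, 75.6, 61.4 and 79.4 CPM with IgG and 39.0, 40.6, 30.4, 46.0 and 46.4 CPM with FG-3149. No FG-3149 library reached the lowest IgG library, and the log2 fold change was -0.70 (SE 0.13; adjusted p = 0.0223), lost without IgG replicate 2 (adjusted p = 0.0578) or FG-3149 replicate 2 (0.0524). Prg4, which encodes the lubricating proteoglycan lubricin, fell by 0.48 on the log2 scale (SE 0.10; adjusted p = 0.0205), a call lost without IgG replicate 2, 4 or 5 or FG-3149 replicate 3, 4 or 5 (adjusted p = 0.0509 to 0.0650). Cd34, a surface sialomucin of resting fibroblasts and endothelium, was at 262, 307, 291, 257 and 260 CPM with IgG and 224, 213, 241, 232 and 208 CPM with FG-3149. Here too the groups were separate (log2 -0.30, SE 0.06; adjusted p = 0.0178). Cd34 missed the threshold without IgG replicate 2 (adjusted p = 0.0578), FG-3149 replicate 2 (0.0509) or FG-3149 replicate 5 (0.0525). It was also not called in the 3′ portion. Other genes that fell included A4galt, a glycolipid galactosyltransferase (log2 -0.63, adjusted p = 0.0240), Etv4 (log2 -1.19, adjusted p = 0.0391) and Ifit2, an interferon-induced gene (log2 -0.28, adjusted p = 0.0443). Eef1a1, a translation elongation factor whose processed copies may share its reads, fell by 0.26 on the log2 scale (adjusted p = 0.0252). These 4 calls also turned on single libraries. The call of A4galt was lost without IgG replicate 2 or 5 or FG-3149 replicate 3 or 5 (adjusted p = 0.0570 to 0.0804), and that of Eef1a1 without IgG replicate 2 or 3 or FG-3149 replicate 4 or 5 (0.0540 to 0.0852). Etv4 was lost without IgG replicate 2, 4 or 5 or FG-3149 replicate 1, 3, 4 or 5 (0.0656 to 0.105), and Ifit2 without any library but IgG replicate 3 and FG-3149 replicate 2 (0.0544 to 0.121). Ifit2 was also not called without first exons, in the 3′ portion or with the GC trend removed.

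Several well known genes of activated fibroblasts and fibrous matrix did not pass the test. Postn (periostin), the best known secreted marker of activated fibroblasts, was at 377, 837, 518, 452 and 535 CPM with IgG and 324, 345, 253, 298 and 240 CPM with FG-3149. Every FG-3149 library lay below every IgG library, and the spread among the IgG libraries was wide. With a log2 fold change of -0.90 (SE 0.20) its adjusted p was 0.0688; it was called without IgG replicate 1 (adjusted p = 0.0274) and by DESeq2 (adjusted p = 0.00296). Col1a1 (log2 -0.19, adjusted p = 0.701), Col1a2 (-0.29, 0.403), Col3a1 (-0.18, 0.751) and Fn1 (-0.36, 0.440), the fibrillar collagens and fibronectin, overlapped between the groups. In each of these 4 the highest IgG library was replicate 2, for example 361 CPM of Col1a1 beside 194 to 227 CPM in the other IgG libraries. Lox, which crosslinks collagen, was not called (log2 -0.34, adjusted p = 0.723), nor was the protease inhibitor Timp1 (-0.43, 0.291) or Tgfb1 (0.05, 0.846).

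**Figure D3:**
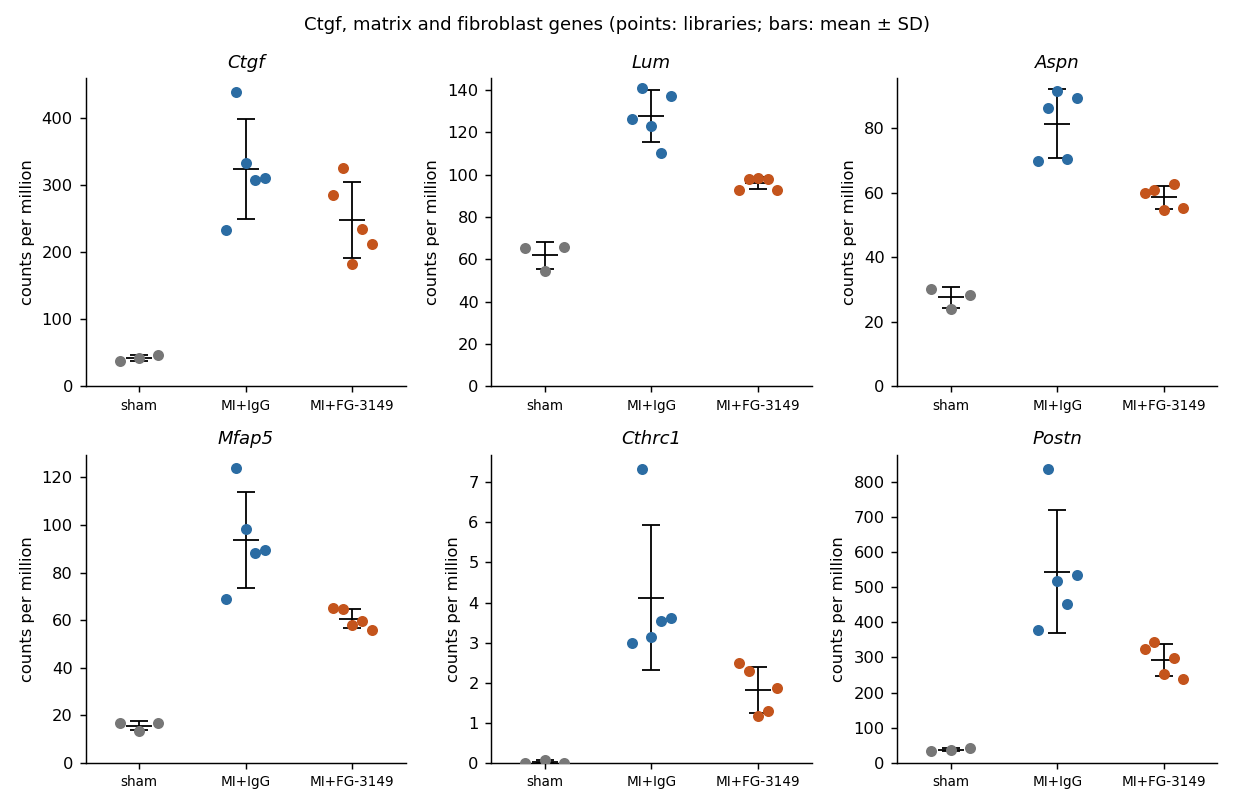
CPM of Ctgf, Lum, Aspn, Mfap5, Cthrc1 and Postn in each library by group (points: libraries; bars: mean ± SD; axes start at 0). Lum at 92.6 to 98.4 CPM and Aspn at 54.6 to 62.5 CPM with FG-3149 lie between sham and IgG without overlap, while Ctgf overlaps between the infarcted groups.

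By list, most matrix genes lay below 0, with few calls. Of 38 non-collagen matrix proteins, 3 fell (Lum, Aspn and Mfap5), none rose, and 33 had a log2 fold change below 0 (median -0.18, against -0.01 over all genes and 0.156% of all genes called lower). The number that fell was 7 without IgG replicate 1 and 2 to 3 without any other library, and the median was -0.08 with 1 surrogate variable. None of 21 collagens was called, 20 of them lay below 0 (median -0.18) and 3 had an unadjusted p under 0.05, all lower; DESeq2 called 1 collagen lower, as edgeR did without IgG replicate 1, and limma voom none. The shift of the fibrillar and other collagens was smaller without IgG replicate 2: their median was then -0.05, with 15 below 0 and 6 above, and with 1 surrogate variable it was -0.02, with 12 below and 9 above. Of 21 activated fibroblast markers, Cthrc1 alone fell, with 10 at an unadjusted p under 0.05, all lower, and a median of -0.44; the count was 5 without IgG replicate 1 and 0 without IgG replicate 2, 4 or 5 or FG-3149 replicate 2, 3, 4 or 5. It was also 0 without first exons, in the 3′ portion and with the GC trend removed, where the median of the activated fibroblast markers was -0.43 to -0.46; that median was -0.28 without IgG replicate 2 and -0.15 with 1 surrogate variable. Of 20 resting fibroblast markers, Lum, Mfap5 and Cd34 fell and the median was -0.12. Without FG-3149 replicate 2 or 5 the count was 1, and it was 2 to 4 without any other library. It was 2 without first exons or with the GC trend removed, and in the 3′ portion only Lum was called. No gene was called by edgeR among 21 tested genes of collagen processing (4 lower at an unadjusted p under 0.05), 26 matrix proteases and inhibitors (1 higher and 5 lower) or 29 genes of TGF-beta signalling (1 higher and 8 lower); DESeq2 called 1 gene lower on each of the last 2 lists, and so did edgeR without IgG replicate 1, with 1 protease or inhibitor higher. The summed level of the activated fibroblast markers was 1440 to 2740 CPM with IgG, 1040 to 1520 CPM with FG-3149 and 338 to 368 CPM in sham. Acta2, the smooth muscle actin that also marks myofibroblasts, was listed at 0 in every library, as were Xbp1 and Igkc. Tagln, also on the smooth muscle list, was at 27.9 to 41.6 CPM with IgG and 22.9 to 33.2 CPM with FG-3149. The cause of the 0 counts was not tested, and they are not read here as absence of the RNAs. In bulk RNA, fewer fibroblasts and less of the marker RNAs per fibroblast cannot be told apart. The summed level of the resting fibroblast markers was 4190 to 5210 CPM with IgG and 4050 to 4580 CPM with FG-3149, and 13 of the 20 lay below 0.

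Among the genes that rose were transcription factors of heart muscle. Nkx2-5, the homeobox factor that specifies and maintains cardiomyocytes, was at 30.9, 31.9, 43.7, 40.8 and 39.1 CPM with IgG and at 53.2, 61.2, 68.6, 57.3 and 64.7 CPM with FG-3149. All FG-3149 libraries were higher than all IgG libraries and than the sham libraries at 34.8 to 37.9 CPM. The log2 fold change was 0.71 (SE 0.09; edgeR adjusted p = 0.00166), 0.70 without first exons (adjusted p = 0.000564) and 0.43 after the GC trend was removed (adjusted p = 0.00851); its RNA has a GC content of 67.1%, against a median of 49.7% over all genes. Hand2, a basic helix-loop-helix factor of the developing ventricle, was at 28.8, 25.6, 28.2, 30.9 and 28.3 CPM with IgG and 36.6, 41.2, 45.3, 35.3 and 38.5 CPM with FG-3149, also without overlap (log2 0.47, SE 0.08; adjusted p = 0.00480). Its rise lay in the first exon: without it the log2 fold change was 0.15 (adjusted p = 0.651), and the first exon held 55.8% of its reads with IgG and 65.7% with FG-3149. These were the 2 genes called among 29 cardiac developmental transcription factors, where 0.916% of all genes were called higher.

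Jund, an AP-1 subunit, gave the smallest p of the comparison, with 47.5, 48.1, 61.6, 56.7 and 52.2 CPM under IgG and 82.8, 108, 103, 91.0 and 88.9 CPM under FG-3149 (log2 0.83, SE 0.08; adjusted p = 0.000173). It is a single exon of 67.1% GC, so its reads could not be split by exon; with the GC trend removed its log2 fold change was 0.55 (adjusted p = 0.00214). Nr2f6, an orphan nuclear receptor, went from 20.6, 23.2, 30.2, 27.8 and 30.7 CPM to 39.2, 46.7, 52.0, 47.6 and 46.4 CPM (log2 0.81, SE 0.10; adjusted p = 0.00106), and stayed called without first exons at a log2 fold change of 0.55 (adjusted p = 0.00711). Hopx, an atypical homeodomain protein of cardiomyocytes that was named here after its values were seen, was at 209, 160, 206, 208 and 185 CPM with IgG and 236, 231, 281, 258 and 227 CPM with FG-3149. It had been at 255 to 272 CPM in sham, and rose with FG-3149 by 0.35 on the log2 scale (SE 0.07; adjusted p = 0.0246), a call lost without IgG replicate 5 (adjusted p = 0.0659) or FG-3149 replicate 3 (0.0621) or 4 (0.0802).

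The bases just before the start of transcription of 3 of these genes are shown because RNAs rich in G and C were more often called higher. They are the 250 bases before the RefSeq start in build GRCm38.p6, printed in the direction of the gene, with each GC box (GGGCGG on either strand) in capitals. Nkx2-5 lies at chr17:26841566-26841815 on the minus strand, Nr2f6 at chr8:71381953-71382202 on the minus strand and Aspn at chr13:49544193-49544442 on the plus strand.
Nkx2-5: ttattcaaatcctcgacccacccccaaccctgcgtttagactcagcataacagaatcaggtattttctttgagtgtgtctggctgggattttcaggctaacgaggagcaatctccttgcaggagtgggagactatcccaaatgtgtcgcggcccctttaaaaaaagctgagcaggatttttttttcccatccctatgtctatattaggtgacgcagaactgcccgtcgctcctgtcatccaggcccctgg
Nr2f6: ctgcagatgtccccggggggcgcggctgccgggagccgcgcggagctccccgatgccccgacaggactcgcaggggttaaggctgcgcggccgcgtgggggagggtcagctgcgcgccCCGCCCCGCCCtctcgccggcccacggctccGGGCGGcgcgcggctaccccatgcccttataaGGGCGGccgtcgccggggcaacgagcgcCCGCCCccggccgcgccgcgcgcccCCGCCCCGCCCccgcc
Aspn: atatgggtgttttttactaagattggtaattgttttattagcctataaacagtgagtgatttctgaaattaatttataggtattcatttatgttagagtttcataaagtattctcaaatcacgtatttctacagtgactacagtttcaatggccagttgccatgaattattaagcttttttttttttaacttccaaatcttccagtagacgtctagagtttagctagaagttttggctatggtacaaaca
The window of Nr2f6 was 82.4% G and C with 7 GC boxes, those of Nkx2-5 and Aspn were 49.2% and 30.0% with none. The median GC content of such windows was 61.4% for genes that rose, 57.8% for genes that fell and 59.6% for all genes tested. Over all genes the difference was slight: 68 of 100 windows of genes that rose held a GC box, 6 of 12 of genes that fell, and 6199 of 10658 (58.2%) of all genes tested with a window. Other motifs were searched on both strands too. An E-box, CACGTG, was in 8 of the 100 windows of genes that rose and in 8.28% of all windows. For the TEAD site, spelled GGAATG, these shares were 11 of the 100 windows and 10.8%. The GATA site read AGATAA was in 4 of them and in 5.85% of all. TGACTCA, the AP-1 site, was in 4 of them and in 3.07% of all.

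Several genes of membrane excitability rose as well. Kcng2, a silent subunit that modifies voltage-gated potassium channels, was at 84.7, 82.7, 105, 95.6 and 95.0 CPM with IgG and at 117, 141, 144, 133 and 134 CPM with FG-3149, with no overlap. The log2 fold change was 0.53 (SE 0.07; edgeR adjusted p = 0.00106) and 0.56 without first exons (adjusted p = 0.000564). Hcn2, a pacemaker current channel, went from 16.1, 18.4, 18.2, 17.7 and 15.6 CPM to 20, 25.7, 30.6, 30.8 and 27.6 CPM. The groups were again separate (log2 0.64, SE 0.10; adjusted p = 0.00289; 0.63 without first exons, adjusted p = 0.00539). Kcnk3, which encodes the background potassium channel TASK-1, was at 266, 251, 250, 235 and 219 CPM with IgG and at 323, 314, 344, 266 and 322 CPM with FG-3149. FG-3149 replicate 4 lay at the level of the highest IgG library, 266 CPM in both, and the others lay above; the sham libraries were at 348 to 354 CPM. Its log2 fold change was 0.36 (SE 0.06; adjusted p = 0.00555), and 0.36 without first exons too (adjusted p = 0.00954). Kcnk3 was lower with IgG than in sham by 0.52 on the log2 scale (adjusted p = 2.38e-05 for that comparison, which shares the IgG libraries with this one).

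Jph2 (junctophilin 2), which holds the T-tubule to the sarcoplasmic reticulum, rose from 529 to 593 CPM with IgG to 653 to 717 CPM with FG-3149 (log2 0.29, SE 0.04; adjusted p = 0.00252). This call was lost with the 3′ portion alone (log2 0.06, adjusted p = 0.684) and with the GC trend removed (0.19, adjusted p = 0.0949). Adrb1, the main adrenergic receptor of the ventricle, is a single exon and was named after its values were seen; it rose by 0.50 on the log2 scale (SE 0.10; adjusted p = 0.0212), lost without IgG replicate 2 (adjusted p = 0.0540) or FG-3149 replicate 3 (0.0648) or 5 (0.0555). Of 34 tested genes for ion channels and calcium handling, 3 rose (Hcn2, Kcnk3 and Jph2) and none fell, with a median log2 fold change of 0.05 against -0.01 over all genes, of which 0.916% were called higher. In the 3′ portion and with the GC trend removed 2 genes of the list rose. Atp2a2, the pump that returns calcium to the sarcoplasmic reticulum, was at 13200 to 14800 CPM with IgG and 14500 to 16200 CPM with FG-3149 and was not called (log2 0.14, adjusted p = 0.218).

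Nuclear genes for mitochondrial proteins lay slightly higher, with few calls. Chchd10, a protein of the mitochondrial intermembrane space, was at 363, 347, 393, 384 and 342 CPM with IgG and at 438, 506, 636, 555 and 548 CPM with FG-3149. All FG-3149 libraries were above the IgG libraries and the sham libraries, which held 404 to 435 CPM. Its log2 fold change was 0.55 (SE 0.08; edgeR adjusted p = 0.00166) and 0.53 without first exons (adjusted p = 0.00539). Cox5a, a subunit of cytochrome c oxidase, was at 658, 613, 726, 656 and 639 CPM with IgG and 769, 816, 976, 832 and 847 CPM with FG-3149, beside 786 to 832 CPM in sham (log2 0.37, SE 0.06; adjusted p = 0.00417). Only part of that difference lay outside the first exon (log2 0.28, adjusted p = 0.0387), and with the 3′ portion alone it was 0.13 (adjusted p = 0.404). Ndufab1, the mitochondrial acyl carrier protein and a complex I subunit, named after its values were seen, rose by 0.64 (SE 0.10; adjusted p = 0.00534) on the log2 scale with all reads and by 0.08 in the 3′ portion (adjusted p = 0.804); its first exon held 11.2% of its reads with IgG and 25.4% with FG-3149.

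Of 54 oxidative phosphorylation genes, 5 rose (Ndufa5, Uqcrfs1, Cox5a, Cox5b and Atp5d), none fell, and 53 had a log2 fold change above 0; over all genes, 0.916% were called higher. The median was 0.10, against -0.01 over all genes, and 8 had no overlap between the groups with FG-3149 higher, beside 1.90% of all genes. In the 3′ portion 42 lay above 0, with a median of 0.06. The number of oxidative phosphorylation genes called was 2 without first exons and 0 in the 3′ portion, and it was 1 without IgG replicate 2 or FG-3149 replicate 4 or 5, 2 without IgG replicate 5 or FG-3149 replicate 3, and 3 without IgG replicate 4. With GC and length trends removed 2 of the 54 were called, with a median of 0.06 and 53 above 0. Of 35 fatty acid oxidation genes, only Acot2, a mitochondrial acyl-CoA thioesterase with a near-identical copy, was called (log2 0.47, adjusted p = 0.0404), and 34 lay above 0 (median 0.11). On the fatty acid oxidation list 8 genes rose without IgG replicate 1, and none did without first exons or with the GC trend removed. The call of Acot2 was lost without IgG replicate 2, 3, 4 or 5 or FG-3149 replicate 2, 3, 4 or 5 (adjusted p = 0.0676 to 0.119). All 20 tricarboxylic acid cycle genes lay above 0 (median 0.07) with none called by edgeR, 5 higher at an unadjusted p under 0.05 and 1 called higher by DESeq2. Among the 76 mitochondrial ribosomal proteins (all Mrpl and Mrps symbols), a group added after values were seen, 5 rose, beside 0.916% of all genes: Mrps24, Mrps34, Mrpl34, Mrpl38 and Mrps30. Mrps24 went from 41.2, 42.2, 47.8, 42.3 and 41.5 CPM to 52.2, 56.1, 72.0, 61.1 and 58.3 CPM (log2 0.48, SE 0.07; adjusted p = 0.00252). Without first exons 3 of the 76 rose, and in the 3′ portion 1. Leaving out a library gave 2 of the 76 without IgG replicate 2 or FG-3149 replicate 4 or 5, and 3 without IgG replicate 3, 4 or 5 or FG-3149 replicate 3.

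**Figure D4:**
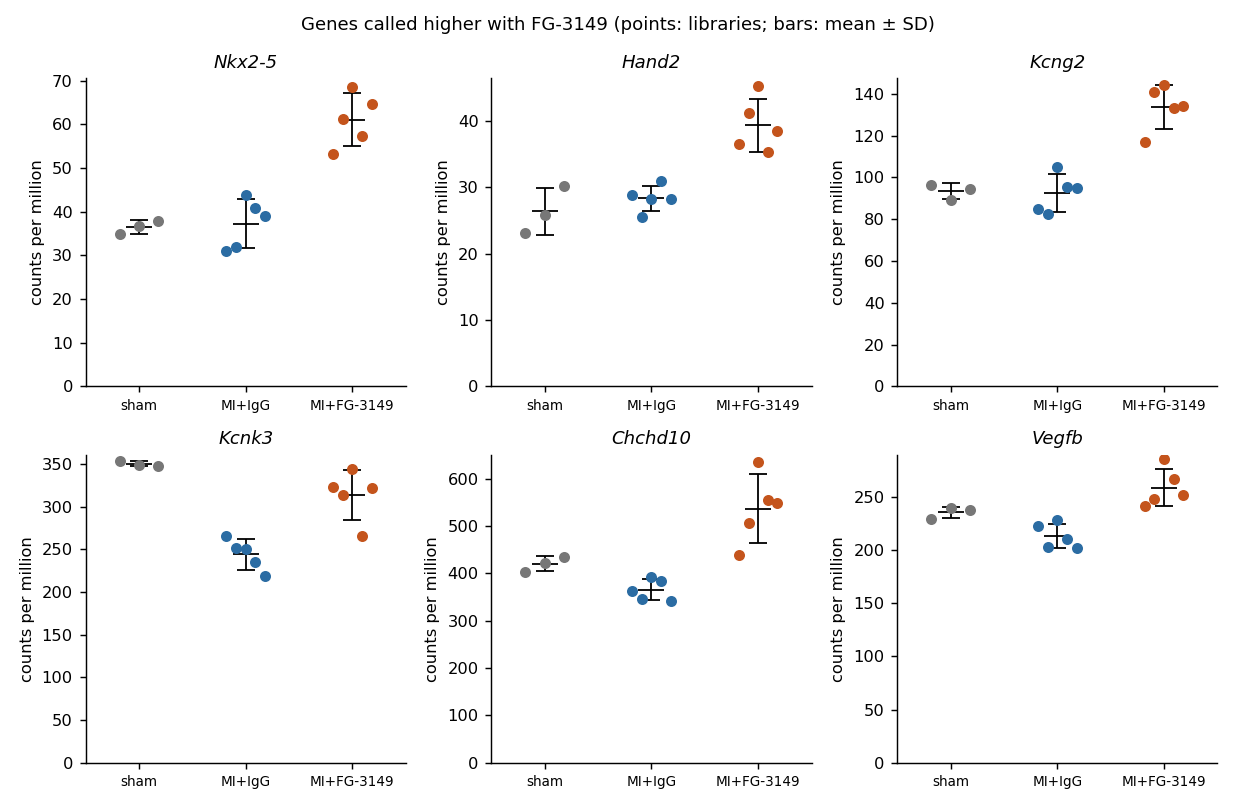
CPM of Nkx2-5, Hand2, Kcng2, Kcnk3, Chchd10 and Vegfb in each library by group (points: libraries; bars: mean ± SD; axes start at 0). Nkx2-5 at 53.2 to 68.6 CPM with FG-3149 lies above IgG and sham, while Kcnk3 with FG-3149 lies at or above IgG and at or below sham.

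Growth and stress genes gave single calls. Vegfb, a vascular growth factor of heart muscle, was at 222, 203, 228, 210 and 202 CPM with IgG and 241, 248, 285, 266 and 251 CPM with FG-3149 (log2 0.28, SE 0.05; edgeR adjusted p = 0.0118). The groups did not overlap, and the call held without first exons (0.27, adjusted p = 0.0260) but not with the GC trend removed (0.15, adjusted p = 0.290). Vegfa was not called (log2 0.20, adjusted p = 0.169). Hspb1, the small heat shock protein HSP27, was at 182 to 202 CPM with IgG and 222 to 267 CPM with FG-3149 (log2 0.36, adjusted p = 0.00393). Without its first exon the log2 fold change of Hspb1 was 0.03 (adjusted p = 0.887), and the exon held 23.6% of its reads with IgG and 40.2% with FG-3149. Sod1, the cytosolic superoxide dismutase, rose by 0.19 (adjusted p = 0.0340) on the log2 scale and by 0.15 without first exons (adjusted p = 0.165). The call of Sod1 was also lost without IgG replicate 2, 3 or 4 or FG-3149 replicate 3, 4 or 5 (adjusted p = 0.0540 to 0.101). Of the cytosolic ribosomal proteins on the list, Rpl13 (log2 0.34, adjusted p = 0.00299) and Rps2 (0.28, adjusted p = 0.0212) rose among 40, of which 27 lay below 0. Rps2 missed the threshold without IgG replicate 2, 4 or 5 (adjusted p = 0.0502 to 0.0652), and near-identical copies make both counts uncertain. In the 3′ portion neither Rpl13 nor Rps2 was called, and the median log2 fold change of the 40 was -0.07. Over all Rpl and Rps symbols, a group added after values were seen, 4 of 83 rose, beside 0.916% of all genes. Of these 83, 44 lay above 0 and 39 below.

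The largest folds belonged to RNAs of low abundance. Scand1, a SCAN domain protein, was at 3.63, 4.34, 9, 8.54 and 5.61 CPM with IgG and at 14.8, 24.9, 28.2, 27.4 and 24.9 CPM with FG-3149 (log2 1.93, SE 0.26; edgeR adjusted p = 0.00534). Zfp771, a zinc finger protein, went from 3.89 to 6.59 CPM to 8.46 to 16.2 CPM (log2 1.25, SE 0.18; adjusted p = 0.00263). Neither depended on the first exon (Scand1 1.96, Zfp771 1.25), and their RNAs are among the richest in GC, at 68.4% and 68.7%. Gpr27, an orphan receptor of a single exon, was at 1.23, 1.13, 1.32, 1.36 and 1.15 CPM with IgG and 3.33, 3.90, 3.00, 2.88 and 2.85 CPM with FG-3149 (log2 1.36, SE 0.19; adjusted p = 0.00166). The uncharacterised RNA A930001A20Rik went from 1.60, 1.30, 0.573, 6.19 and 2 CPM to 14.5 to 17.9 CPM (log2 2.83, SE 0.43; adjusted p = 0.0121). Rn4.5s, a short repeated non-coding RNA, rose from 1.15 to 8.60 CPM to 16.4 to 24.6 CPM (log2 2.49, SE 0.39; adjusted p = 0.0159). Erdr1 went from 4.23 to 5.16 CPM to 9.84 to 25.4 CPM (log2 1.68, SE 0.23; adjusted p = 0.00393). Rn4.5s and Erdr1 have near-identical copies in the genome, so their counts are uncertain.

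**Figure D5:**
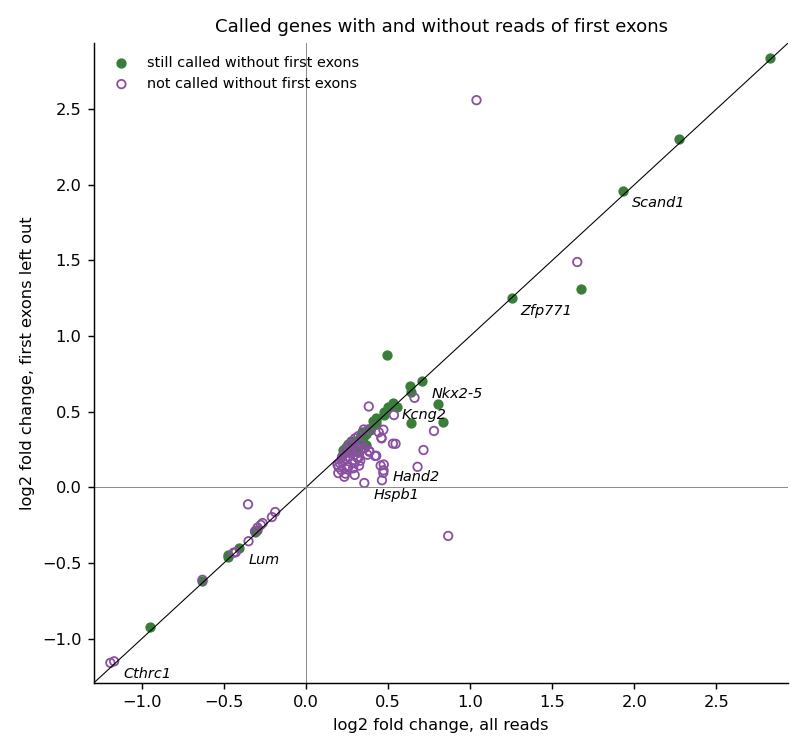
Log2 fold change of FG-3149 over IgG with the reads of first exons left out (vertical) against that with all reads (horizontal) for the 126 called genes that could be tested both ways; the line marks equality. Of the 48 genes still called, Nkx2-5 (0.71 and 0.70) lies near the line and Nr2f6 (0.81 and 0.55) below it; Hand2 (0.47 and 0.15) and Hspb1 (0.36 and 0.03) are among the 78 that were not.

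The genes that rose shared features of sequence. Their median GC content was 55.9% (119 of 123 genes with a value), against 49.7% over all genes and 47.8% for the genes that fell. Their median transcript length was 1363 bases, against 2880 over all genes and 2351 for those that fell. A single exon made up the transcript of 16 of the 123 (13.0%), against 2.99% of all genes. Of the 119, 49 were among the 1332 genes with the highest GC content, where the median log2 fold change was 0.05, against -0.05 in the 1332 genes with the lowest. Called higher with all reads, in both refits by read position and in both by composition were 21 of the 123, among them Nkx2-5, Nr2f6, Hopx, Kcng2, Hcn2, Kcnk3, Chchd10, Mrpl34, Scand1, Zfp771, Erdr1 and Endog, a mitochondrial nuclease named after its values were seen. Only 106 of the 123 could be tested without first exons, and 105 in the 3′ portion. Jund and Gpr27, each a single exon, could not be among the 21 but were called under every alternative that tested them. One called gene changed sign without first exons: Rnaset2b, a ribonuclease with a near-identical copy, had a log2 fold change of 0.87 with all reads and -0.32 without (adjusted p = 0.627). Its call also turned on IgG replicates 2, 4 and 5 and FG-3149 replicates 2, 3 and 4 (adjusted p = 0.0607 to 0.105 without each), and that of Mrpl34 on IgG replicate 2 and FG-3149 replicates 4 and 5 (0.0525 to 0.0578).

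Markers of muscle stress and of the other cell types of the heart gave no calls over all 13 libraries. Of 18 tested hypertrophy and fetal genes edgeR called none (5 lower at an unadjusted p under 0.05; DESeq2 called 1 lower, and edgeR 2 without IgG replicate 1 and 1 without FG-3149 replicate 1 or with the replicate block): Nppa (log2 -0.38, adjusted p = 0.620), Nppb (-0.28, 0.702), Myh7 (-0.49, 0.319), Myh6 (0.13, 0.350) and Acta1 (0.22, 0.780) overlapped between the groups. Neither edgeR nor DESeq2 called any of 14 cardiomyocyte (3 higher at an unadjusted p under 0.05), 19 macrophage (none), 14 endothelial (2 lower) or 13 smooth muscle and pericyte markers (2 higher). Their summed levels overlapped, at 101000 to 110000 CPM with IgG and 106000 to 115000 CPM with FG-3149 for cardiomyocytes, 541 to 835 and 588 to 924 CPM for macrophages, 2080 to 2470 and 2100 to 2380 CPM for endothelium. Single libraries moved the values of 3 marker lists. Among atrial markers, Myl4, the atrial light chain, was at 21.5 and 30.7 CPM in IgG replicates 4 and 5 and at 1.91 to 3.06 CPM in the other infarcted libraries, and was not called (adjusted p = 0.287). The 11 epicardial and mesothelial markers summed to 7.05 to 22.9 CPM with IgG and 7.26 to 62.6 CPM with FG-3149; the median log2 fold change of the 7 tested was 0.43 with all libraries and, over 6 tested, -0.46 without FG-3149 replicate 3. The median of the adipocyte markers was -0.14 over 5 genes and 1.11 over the 4 tested without IgG replicate 5, and -1.55 over the 4 tested without FG-3149 replicate 3. The part of these cell types in the other results was not tested beyond leaving out each library in turn. Of 37 cell cycle genes 34 lay below 0 (median -0.13), with 1 higher and 6 lower at an unadjusted p under 0.05 and none called by edgeR or DESeq2. The same tests called none of 28 cytokines and chemokines (1 lower at an unadjusted p under 0.05), 19 complement genes (1 higher and 2 lower), 15 genes of antigen presentation (none), 16 clock genes (none) and 20 genes of the unfolded protein response (none). Of 24 sarcomere genes 4 lay higher at an unadjusted p under 0.05, and of 27 glycolysis genes 6, with none called by edgeR and 2 glycolysis genes called higher by DESeq2. Leaving out IgG replicate 1 gave edgeR calls for 2 glycolysis genes, both higher, and for 1 cell cycle and 1 complement gene, both lower. Without FG-3149 replicate 1 it called 1 sarcomere gene and 1 cardiomyocyte marker higher. The interferon list had 1 call of 37, Ifit2, and none without first exons, in the 3′ portion or with the GC trend removed.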

How the data were processed

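Poly(A) RNA was sequenced from 13 libraries on 1 flow cell with single reads of 75 bases, from 500 ng of RNA and a stranded kit, per the labels' protocols. The authors deposited estimated counts per gene, transcript and exon on build mm10, per the submitters' processing notes, and RPKM values for 29163 transcripts. The aligner, counter and strand setting are not given in the sources used here. Of the deposited nonzero gene counts, 79.4% were whole to within 0.01. All were rounded, and 379 entries that repeat a symbol (1.1e-06% of reads) were left out.

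The series' design text speaks of animals, and replicates were taken as animals. Genes were filtered with filterByExpr and fitted over all 13 libraries with edgeR 4.0.16 (TMM scaling, robust quasi-likelihood test), with the SE as the absolute log2 fold change over the square root of F. Single library measures were compared by exact two-sided permutation over all groupings of 5 against 5. Sums of the exon rows gave the counts without first exons and of the 3′ portion, where genes of 1 exon are not tested. The 28 alternatives, 6 of them added after seeing the data (first exons, 3′ portion, GC, GC with length, Rn45s, and leaving out IgG replicate 1 and FG-3149 replicate 3 together), used edgeR, limma 3.58.1, DESeq2 1.42.0 or sva 3.50.0 in R 4.3.3. Deposited RPKM was tested with limma as log2(RPKM + 1) or log2(RPKM + 0.1). Named genes were the 12 highest and 12 lowest fold changes among called, non-overlapping genes of log2 CPM at least 1, the 10 smallest p in each direction, up to 4 members of each of 48 lists by p, and 22 fixed genes. Genes outside this rule that the text names without saying so (Etv4, Cox5b, Mrps24, Mrps34, Mrps30, Mrpl34, Mrpl38, Rnaset2b) were chosen after their values were seen. The members and lists were chosen with earlier results of these data known. The fit was also run on simulated counts with known changes. That simulation held no shift in read position or base composition between the groups, so it does not bear on those shifts. Promoter windows came from RefSeq for 10658 of 13434 genes.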

Additional observations from a re-analysis of the deposited data

Results flagged for a closer look

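In these groups of 5, 1 library stood apart from the other 4 by Dixon's criterion (the gap to the nearest library over the range of the group) for 11 of 180 groups examined (81 genes and 9 library measures in both infarcted groups), and chance alone marks about 1 group in 20. IgG replicate 2 was high in 5 of the 11: Cthrc1 at 7.32 CPM (others 2.98 to 3.61), Col1a1 at 361 (194 to 227), Col1a2 at 501 (283 to 330), Col3a1 at 871 (441 to 557) and Fn1 at 315 (155 to 192), all genes of the fibroblast matrix. IgG replicate 3 was low for Ifit2 at 29.9 CPM (others 33.5 to 33.8) and high for Mrps24 at 47.8 (41.2 to 42.3). A930001A20Rik was high in IgG replicate 4 at 6.19 CPM (others 0.573 to 2), and Ier5l, an immediate early gene, was low in IgG replicate 1 at 2.47 CPM (3.71 to 3.96). FG-3149 replicate 3 was high for Rps2 at 922 CPM (others 727 to 781), and FG-3149 replicate 1 was low for Scand1 at 14.8 CPM (24.9 to 28.2).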

How the results depend on the processing

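The counts of genes that rose and fell were 123 and 21. They became 220 and 58 with DESeq2, 76 and 7 with the infarcted libraries alone, 2 and 0 with 1 surrogate variable, 43 and 9 without first exons and 29 and 5 in the 3′ portion. At 0 genes lower with the surrogate variable, 1085 genes in either direction had an unadjusted p under 0.05. Genes that rose numbered 77 on log2(RPKM + 1) and 73 on log2(RPKM + 0.1). Genes that fell numbered 38 with the clock score as a covariate, 32 with GC and length trends removed and 86 without IgG replicate 1 and FG-3149 replicate 3 together. Leaving out each library in turn gave 62 to 175 genes higher and 6 to 96 lower. Beside the replicate block below, the other alternatives stayed within 1.5 times of both counts. The cause of these differences was not tested, except that genes of 1 exon cannot be called without first exons.

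With the replicate number as a replicate block, 169 genes rose and 46 fell. The numbers were not taken to pair the samples: deviations of same-numbered libraries correlated by 0.178, 0.133, -0.0235, 0.0157 and 0.0585, and 1 of 5 libraries matched its own number best.

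For 81 single genes, 2251 comparisons with the 28 alternatives kept the side of the threshold in 1884, lost a call in 360, gained one in 5 and reversed a called direction in 2: Rnaset2b, at a log2 fold change of -0.321 without first exons and -0.283 in the 3′ portion. With totals of 10954901 to 12794791 counts, the FG-3149 libraries limit what can be seen in genes near 1 CPM, and counts thinned to the lowest total gave 118 genes higher and 22 lower.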
